A study of Mus musculus with 4 samples.

Results

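Proteasome genes were followed in single dorsal root ganglion (DRG) cells of the mouse after nerve injury. Members were all genes whose symbol starts with Psma, Psmb, Psmc, Psmd or Psme, without the inducible catalytic subunits Psmb8 and Psmb9, and with at least 100 UMIs (unique molecular identifiers, about 1 per captured RNA molecule) over all cells. The files hold 43 such symbols among 31053 genes, and 42 passed. Psmb11, a thymus-specific catalytic subunit, was left out with 20 UMIs. By role, 8 members form the alpha ring, 7 the constitutive beta ring, 6 the ATPase ring and 11 the rest of the base and the lid, and these 32 are called subunits below. The other 10 are the inducible beta subunit Psmb10, the assembly chaperones Psmd5, Psmd9 and Psmd10, the activator genes Psme1, Psme2, Psme2b, Psme3 and Psme4, and Psmc3ip, a recombination factor that shares only the prefix. Psma8, the testis form of an alpha subunit, had 230 UMIs, Psme2b 783 and Psmc3ip 1518, against 25788 to 623539 for the remaining members. Psme2b is a near copy of Psme2, so that the split of reads between them is uncertain.

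The study asked how injured and uninjured neurons of each sensory subtype respond to CCI, in which loose ties constrict the sciatic nerve (chronic constriction injury), a model of neuropathic pain. Mice were heterozygous for the Pirt-EGFPf allele on a C57BL/6 background. In this allele a farnesylated green fluorescent protein takes the place of the coding sequence of Pirt, a gene of most DRG neurons. GFP+ cells were sorted. Both sciatic nerves received CCI or sham surgery at an age of 7-8 weeks, and L4-5 DRGs of both sides were taken on day 7. Each of the 4 libraries (Male-Sham and Female-Sham, Male-CCI and Female-CCI) pools 20 DRGs of 5 mice that cannot be told apart. The 2 libraries of each surgery, 1 of either sex, served as replicates, so that the spread holds the difference between the sexes. Littermates had the same surgery, so litter and surgery cannot be told apart. In the pairs of values below the male library comes first and the female library second.

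The proteasome is the protease complex that degrades proteins tagged with ubiquitin. Its core particle is a stack of alpha and beta rings with 3 catalytic beta subunits inside, Psmb5 (chymotrypsin-like), Psmb6 (caspase-like) and Psmb7 (trypsin-like). A regulatory particle on its end recognises the tagged protein with non-ATPase subunits and unfolds it with the Psmc ATPases, and other caps, PA28 (Psme1 and Psme2), PA28gamma (Psme3) and PA200 (Psme4), open the core without ubiquitin. Interferon exchanges the catalytic subunits for Psmb8, Psmb9 and Psmb10 and raises PA28. Transcription of the subunits as a set is known to be driven by Nfe2l1 (Nrf1), which is freed by Ddi2 and Ngly1 when proteasome capacity falls short.

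After filters 15715 cells were kept, of which 3281, 5398, 2817 and 3638 were neurons in the libraries in the order above, with a median of 45172, 32490, 56457 and 43516.5 UMIs per neuron. Clusters were named from marker lists and are called X-like, where NP is non-peptidergic, PEP peptidergic, NF neurofilament-rich, cLTMR a C-fibre low-threshold mechanoreceptor, CCI-ind a class that the study named for its appearance after CCI, and SGC a satellite glial cell. A neuron was called Sprr1a+, the study's sign of injury, where its normalised value, the natural log of 1 plus UMIs per 10000, was above 1. By this limit 42 of 3281 and 144 of 5398 sham neurons were Sprr1a+, against 1467 of 2817 and 1790 of 3638 CCI neurons. A barcode also found in another library was carried by 904 kept cells, and results that change without them are given with both values. Markers of satellite glia summed to 929 to 1709 UMIs per 1000000 UMIs (UPM) in neurons against 104818 to 133386 in SGC-like cells.

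The subunits were present at like levels in every neuron class of the sham libraries, which is a description without a test. Their UMIs, summed over the 32 genes, made up 8701 and 8917 UPM of all sham neurons. Among 11 neuron classes, CCI-ind-like neurons left aside, the sum was highest in NP1-like neurons at 9483 and 9953 UPM and lowest in PEP5-like neurons at 7473 and 7796 UPM, 1.27 times apart in the mean of both libraries. Next to the top stood cLTMR-like neurons at 9760 and 9648 UPM, within the spread of NP1-like neurons, and NF2-like neurons at 7647 and 8202 UPM overlapped PEP5-like ones. With each cell thinned to 2000 UMIs, cLTMR-like neurons were highest and NF2-like neurons lowest, 1.25 times apart. For a single subunit, the class with the highest level exceeded the class with the lowest 1.22 (Psma6) to 1.82 times (Psmc2), with a median of 1.48, Psma8 aside, which had 0 UMIs in PEP2-like neurons. NP1-like neurons were highest for 11 of the 32, cLTMR-like for 7 and NP3-like for 6. NF2-like neurons were lowest for 9, PEP5-like for 7, PEP2-like for 6 and NF1-like for 5. The sum in SGC-like cells was 4535 and 4361 UPM, and 30 of 32 subunits were lower there than in neurons in both sham libraries. The median ratio of neurons to SGC-like cells over the 32 was 1.98. How many of all genes are lower in SGC-like cells is not given here, so the count is not read as a trait of the subunits.

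Among the activator genes, Psme1 did not share this evenness. The ratio of the highest to the lowest class lay within the range of the subunits for Psme3. It lay above that range for Psme2, Psme2b and Psme4, by far less than for Psme1. Psme1, the alpha subunit of PA28, ranged from 128 and 127 UPM in PEP2-like to 5.88 and 6.21 UPM in NF1-like neurons, 21.1 times apart. Between them came PEP5-like neurons at 105 and 111, PEP3/4-like at 105 and 103, cLTMR-like at 96.7 and 104, NP1-like at 85.5 and 79.4, PEP1-like at 58.1 and 62.6, NF2-like at 49.2 and 56.9, NP2-like at 47.2 and 46.5, NP3-like at 26.1 and 26.9 and CCI-ind-like at 14.3 and 16.8 UPM. Neighbours among these named classes overlapped from PEP5-like to cLTMR-like neurons and did not overlap at the other steps. Psme2, the beta subunit of the same ring, was highest in PEP5-like at 132 and 127 and lowest in NF1-like neurons at 58.3 and 56.0 UPM, only 2.27 times apart. SGC-like cells had 134 and 146 UPM of Psme1 and 169 and 151 UPM of Psme2. The plot of the PA28 genes by class shows both genes side by side.

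**Figure D1:**
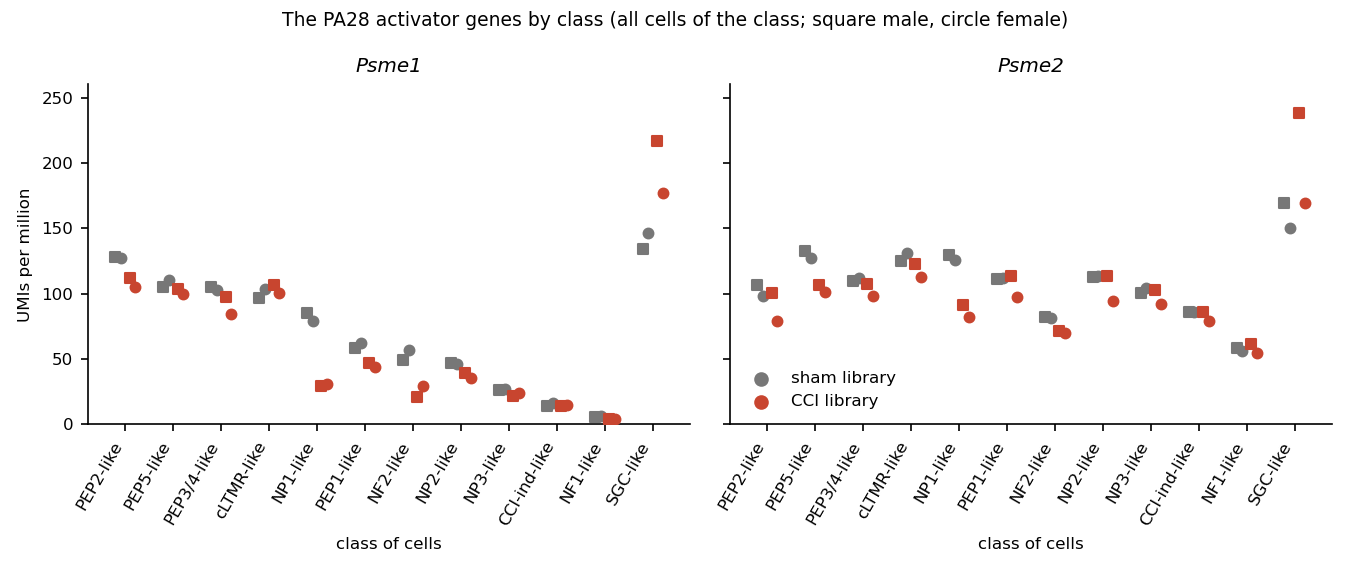
Level of Psme1 (left) and Psme2 (right) in UPM (y axis) in each class of cells (x axis), with 1 point per library, squares male and circles female, grey sham and red CCI. Psme1 runs from 128 and 127 in PEP2-like down to 5.88 and 6.21 in NF1-like neurons of the sham libraries, while Psme2 stays between 56.0 and 132 in the same neurons.

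The first comparison asked how all neurons of the CCI libraries differ from all neurons of the sham libraries. Most proteasome subunits were higher after CCI, led by the regulatory particle, and the PA28 genes were lower. Of the 42 members 26 rose and 2 fell at an adjusted p below 0.05 (edgeR quasi-likelihood test on summed UMIs, 2 against 2 libraries, Benjamini-Hochberg over 17233 genes), where 27.8% of all tested genes rose and 27.1% fell. All 6 ATPases rose, 10 of 11 non-ATPase subunits, 5 of 7 beta and 4 of 8 alpha subunits, and the 32 subunits had a median log2 change of 0.27 where that of all genes was -0.01. None of the subunits fell. With the study's limit of 0.5 on the log2 change added, 4 members rose and 1 fell, against 15.2% and 12.7% of all genes. Scaled by library totals instead of TMM factors, 21 rose and 3 fell, against 24% and 31.5% of all genes.

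Psmd11, a lid subunit that other work ties to assembly of the whole complex, stood at 125 and 115 UPM in the sham and at 189 and 178 UPM in the CCI libraries. Both CCI values lay above both sham values, and Psmd11 rose by 0.67 ± 0.06 on the log2 scale (SE, n = 2 libraries per surgery, adjusted p = 0.000196 by edgeR). Psmc4, an ATPase, went from 125 and 128 to 182 and 182 UPM, a log2 change of 0.58 ± 0.05 (adjusted p = 0.00013). Psmc6, another ATPase of the ring, went from 187 and 202 to 272 and 279.7 UPM, 0.56 ± 0.06 (adjusted p = 0.00032). Psme4, which encodes PA200, was at 35.2 and 34.9 UPM in sham and at 50.4 and 49.9 UPM in CCI neurons, 0.57 ± 0.04 (adjusted p = 4.76e-05). For these genes the CCI libraries stood clear of the sham libraries by far more than the male and female values differed.

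The catalytic subunits moved less. Psmb5 was at 609 and 659.9 UPM in sham and 688 and 721 UPM in CCI neurons, 0.21 ± 0.06 (adjusted p = 0.0228). Psmb6 went from 587 and 603 to 629 and 686 UPM, 0.20 ± 0.06 (adjusted p = 0.0213), and Psmb7 from 215 and 219.7 to 244 and 262 UPM, 0.27 ± 0.05 (adjusted p = 0.00518). In each of the 3 genes the lower CCI value exceeded the higher sham value, and the calls of Psmb5 and Psmb6 were lost with library totals (adjusted p = 0.0549 and 0.0611). Of the alpha ring, Psma7 rose most among the called, from 670.4 and 675 to 848 and 889.9 UPM (0.42 ± 0.05, adjusted p = 0.000423). No change was detected in Psma6, another alpha subunit, at 231 and 244 against 227 and 230.0 UPM (-0.00 ± 0.05, adjusted p = 0.989). The deubiquitinase of the lid, Psmd14, had 161 and 167 against 163 and 157 UPM (0.02 ± 0.05, adjusted p = 0.757), the smallest value of the non-ATPases. Psmb2, with 376 and 403 against 394 and 418 UPM (0.12 ± 0.06, adjusted p = 0.14), and Psmb1 (0.13 ± 0.05, adjusted p = 0.0815) were the beta subunits without a call. The ATPase with the smallest rise was Psmc2, from 198 and 203 to 212 and 231 UPM (0.20 ± 0.06, adjusted p = 0.0223). Psma8 had the most positive value of the alpha genes on 49, 37, 62 and 42 UMIs, 0.44 ± 0.30, and did not pass (adjusted p = 0.255). The call of Psmd7, at 279 and 261 against 295 and 293 UPM (0.18 ± 0.05, adjusted p = 0.0221), was lost without the cells that share a barcode (adjusted p = 0.0639).

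Psme1 was at 68.1 and 74.6 UPM in sham and at 37.4 and 40.6 UPM in CCI neurons. The CCI values were both below the sham values, and Psme1 fell by 0.82 ± 0.06 on the log2 scale (adjusted p = 9.61e-05). Markers of satellite glia, which hold more Psme1 than neurons do, summed to 1379 and 1709 UPM in sham and to 929 and 1137 UPM in CCI neurons. Without the 4 neuron clusters in which at least 90% of cells had a UMI of the glial gene Fabp7, Psme1 had a log2 change of -0.85. An unnamed cluster led by Rxfp1, in which 7 of 8 glial markers were raised, stayed in. The part of glial RNA in the fall of Psme1 was not tested. Psme2 fell by less, from 108 and 109.8 to 92.1 and 85.6 UPM (-0.23 ± 0.06, adjusted p = 0.0112), and was not called with cells thinned to 2000 UMIs (-0.16, adjusted p = 0.108). Psme3, which builds the nuclear cap PA28gamma, had 43.5 and 43.2 against 45.6 and 42.4 UPM (0.08 ± 0.05, adjusted p = 0.203), and Psmb10 had 86.9 and 92.0 against 82.4 and 93.5 UPM (0.03 ± 0.07, adjusted p = 0.725), with overlap between the surgeries in both. None of the 3 assembly chaperones passed the test, with log2 changes from -0.12 (Psmd5) to 0.03 (Psmd9). Sums over all neurons do not tell a lower share of a class of neurons from a lower level within it. Levels by Sprr1a status and within single classes are given below.

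**Figure D2:**
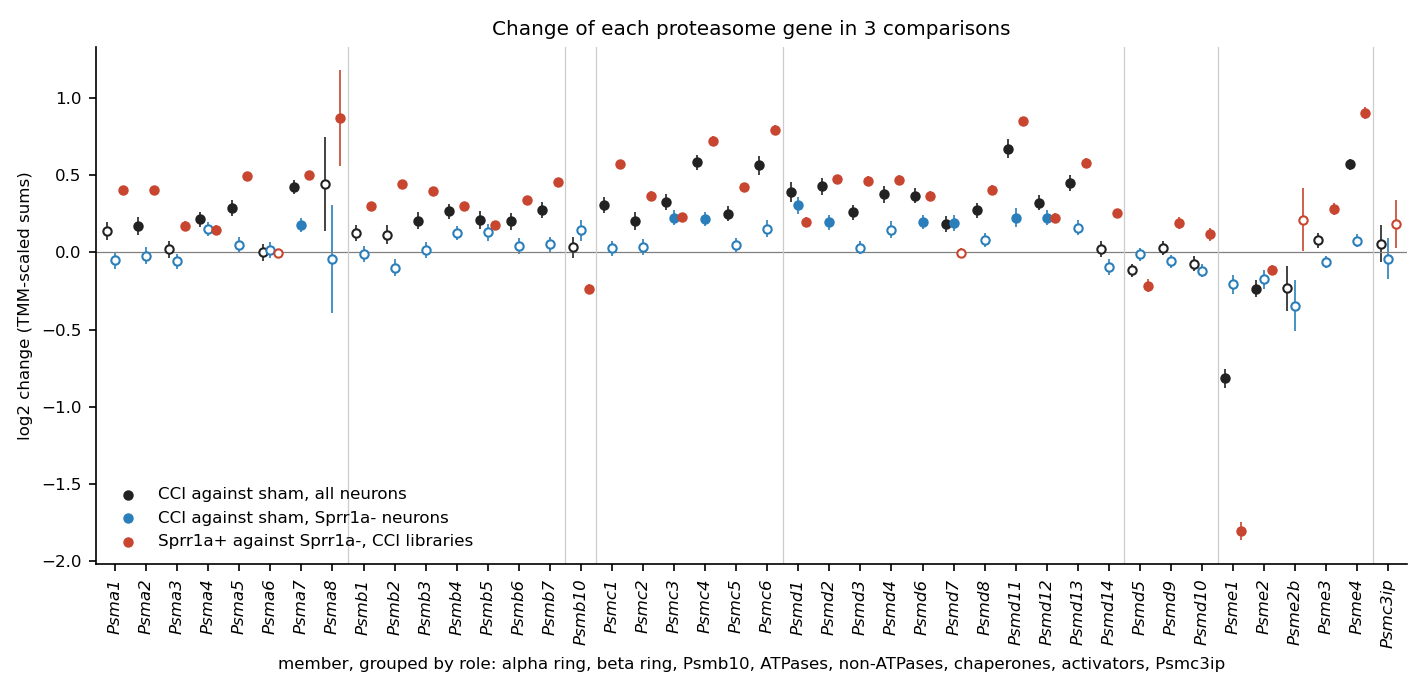
Log2 change (y axis) of each of the 42 members (x axis, grouped by role) in CCI against sham neurons (black), in Sprr1a- neurons of CCI against sham (blue) and in Sprr1a+ against Sprr1a- neurons of the CCI libraries (red). Bars are SE and filled points passed an adjusted p of 0.05. Red points lie above 0 for 36 of 42 members and Psme1 stands lowest at -1.81.

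To show the sequence at the start of some of the members described here, promoter windows of 300 bases (250 before and 50 after the annotated start, RefSeq, GRCm38.p6) were taken for Psmd11, Psmc6 and Psme4, which rose, for Psmb5 as a catalytic subunit, and for Psme1 and Psme2, which fell. They are read 5′ to 3′ on the strand of the gene, and capitals mark matches to the motifs named below. The windows lie at chr11:80428365-80428664 (+), chr14:45329574-45329873 (+), chr11:30771525-30771824 (+), chr14:54617946-54618245 (-), chr14:55578244-55578543 (+) and chr14:55591052-55591351 (-).
Psmd11: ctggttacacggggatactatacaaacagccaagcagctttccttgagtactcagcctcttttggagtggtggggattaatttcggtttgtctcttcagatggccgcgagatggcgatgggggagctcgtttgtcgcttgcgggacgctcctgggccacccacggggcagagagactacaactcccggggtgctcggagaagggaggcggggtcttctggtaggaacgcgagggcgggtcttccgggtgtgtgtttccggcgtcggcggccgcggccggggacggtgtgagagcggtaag
Psmc6: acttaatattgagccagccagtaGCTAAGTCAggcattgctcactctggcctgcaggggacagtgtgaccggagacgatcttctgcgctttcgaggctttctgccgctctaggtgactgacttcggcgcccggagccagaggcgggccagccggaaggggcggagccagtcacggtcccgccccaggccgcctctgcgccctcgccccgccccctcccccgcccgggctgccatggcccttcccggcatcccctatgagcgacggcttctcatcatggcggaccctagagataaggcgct
Psme4: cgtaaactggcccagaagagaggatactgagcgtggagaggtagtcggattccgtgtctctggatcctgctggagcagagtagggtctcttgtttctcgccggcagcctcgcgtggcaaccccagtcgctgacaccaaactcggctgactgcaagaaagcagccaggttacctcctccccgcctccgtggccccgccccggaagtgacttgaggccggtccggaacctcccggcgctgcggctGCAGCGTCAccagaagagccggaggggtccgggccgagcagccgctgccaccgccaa
Psmb5: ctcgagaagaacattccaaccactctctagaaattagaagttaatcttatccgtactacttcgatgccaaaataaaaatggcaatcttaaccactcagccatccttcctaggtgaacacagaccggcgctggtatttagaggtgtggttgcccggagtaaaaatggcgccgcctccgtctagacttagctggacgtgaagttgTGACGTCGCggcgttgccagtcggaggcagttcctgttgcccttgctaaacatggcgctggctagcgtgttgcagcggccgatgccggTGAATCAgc
Psme1: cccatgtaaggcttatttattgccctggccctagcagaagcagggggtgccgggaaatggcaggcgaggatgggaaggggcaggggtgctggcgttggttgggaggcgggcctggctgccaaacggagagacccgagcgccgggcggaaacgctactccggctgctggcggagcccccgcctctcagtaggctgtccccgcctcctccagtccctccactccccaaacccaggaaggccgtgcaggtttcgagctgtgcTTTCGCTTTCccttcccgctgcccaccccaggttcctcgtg
Psme2: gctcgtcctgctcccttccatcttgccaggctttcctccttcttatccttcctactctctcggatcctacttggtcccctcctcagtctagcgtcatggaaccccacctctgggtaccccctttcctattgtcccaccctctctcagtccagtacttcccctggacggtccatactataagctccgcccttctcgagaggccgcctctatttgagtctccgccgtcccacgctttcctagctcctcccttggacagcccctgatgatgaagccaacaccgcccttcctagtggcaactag

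The 5 motifs below were searched on both strands in the 38 windows that RefSeq gives for 35 of the 42 members. The antioxidant response element (ARE, TGACNNNGC), which Nfe2l1 and Nfe2l2 bind, was in 6 windows (15.8%) against 12.4% of all 32851 windows. In Psmc6 it starts 227 bases before the annotated start, in Psmb5 47 bases before and in Psme4 7 bases before. The CCAAT box (CCAAT) was in 13 windows (34.2%, all windows 37.4%) and the AP-1 site (TGANTCA) in 2 (5.26%, all windows 7.81%), of which that of Psmb5 starts 42 bases after the start. The core of the interferon-stimulated response element was in 4 windows (10.5%, all windows 3.44%), among them Psme1, 10 bases after the start, and the cAMP response element (TGACGTCA) was in 0, against 1.79% of all windows. No matches of different motifs overlapped in the members' windows, and 18 of the 38 windows, Psmd11 and Psme2 included, held none. Psme1 (ENSMUSG00000022216, chr14:55578123-55581529) and Psme2 (ENSMUSG00000079197, chr14:55587441-55591113) are neighbours that are read from opposite strands. A match is a description of letters and shows no binding.

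Without the Sprr1a+ neurons the changes were smaller. Among Sprr1a- neurons, 9 members rose after CCI and 0 fell (edgeR, 16407 genes), where 9.3% of all genes rose and 8.3% fell. At an unadjusted p below 0.05 there were 14 higher and 3 lower, a limit for which no share of all genes is given here. DESeq2 called 11 higher and 1 lower, against 8.82% and 8.39% of all genes. The 9 are the non-ATPase subunits Psmd1, Psmd2, Psmd6, Psmd7, Psmd11 and Psmd12, the ATPases Psmc3 and Psmc4 and the alpha subunit Psma7, and all are among the 26 above. No beta subunit passed. Psmd1, the largest base subunit, was at 144 and 140.5 UPM in Sprr1a- sham and at 185 and 172 UPM in Sprr1a- CCI neurons, with no overlap (0.30 ± 0.05, adjusted p = 0.014). The median log2 change of the 32 subunits was 0.06 and that of all genes -0.00. Psme1 had 68.9 and 76.4 against 63.9 and 64.0 UPM (-0.21 ± 0.06, adjusted p = 0.0552), and Psme2 108 and 111 against 103 and 93.4 UPM (-0.18 ± 0.06, adjusted p = 0.0915). Psme4 had 35.1 and 34.5 against 36.4 and 38.1 UPM (0.08 ± 0.04, adjusted p = 0.246). Without Male-Sham or without Female-Sham 0 members were higher (edgeR), where 3.8% and 3.57% of all genes were, and 1 was higher without Male-CCI or without Female-CCI, where 5.26% and 2.53% of all genes were. The members' median was 0.03 to 0.08 in these fits, against 0.04 with all libraries. Leaving out the cells whose barcode is in another library left 3 higher (7.33% of all genes), with Psmd2, Psmd6, Psmd7, Psmd11, Psmc4 and Psma7 lost. With any Sprr1a UMI as the limit, 1 member was higher and 3 were lower (10.9% and 11.7% of all genes), at a median of -0.02. Of 14 markers of CCI-ind-like neurons 13 rose in the Sprr1a- neurons, from a sum of 144 and 161 to 298 and 346 UPM, and their part in these results was not tested.

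Within single classes, the same comparison of Sprr1a- neurons could be made in 10 classes. Members rose 44 times over the classes and fell 5 times. PEP1-like neurons had 11 of 41 tested members higher (all genes 7.95%), NP2-like 12 of 41 (8.08%), NF2-like 9 of 40 (1.86%), PEP2-like 6 of 40 (6.94%), PEP5-like 4 of 40 (4.74%), PEP3/4-like 1 of 41 (7.54%) and NF1-like 1 of 39 (1.04%). NP1-like (2.51%), NP3-like (3.33%) and cLTMR-like neurons (3.43%) had 0 by edgeR and 0 by DESeq2, with 4, 7 and 3 members higher at an unadjusted p below 0.05. No share of all genes is given at that unadjusted limit. Psmd1 had a positive value in all 10 classes and passed in 7, from 0.25 ± 0.07 in PEP3/4-like (adjusted p = 0.0282) to 0.43 ± 0.10 in NF2-like neurons (adjusted p = 0.0363). In NF2-like neurons all 31 tested subunits had positive values with a median of 0.28, as in PEP1-like neurons with a median of 0.18. NF1-like neurons had 30 and NP2-like 29 of 31, each with a median of 0.14. The fewest were 17 of 31 in cLTMR-like neurons, with a median of 0.01, and the remaining classes had 19 (NP1-like) to 24 (PEP2-like and PEP3/4-like). The share of all genes with positive values is not given here. The difference between classes was not tested. Without Male-Sham or without Female-Sham fewer members rose, as did a smaller share of all genes in most classes.

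The 5 falls were of PA28 genes. Psme1 fell in NP1-like (-0.75 ± 0.15, adjusted p = 0.0044), PEP1-like (-0.38 ± 0.07, adjusted p = 0.00495), NP2-like (-0.35 ± 0.07, adjusted p = 0.0026) and PEP2-like neurons (-0.23 ± 0.08, adjusted p = 0.0382), where 2.23%, 6.79%, 7.15% and 6.19% of all genes fell. By DESeq2 the fall in PEP2-like neurons was not called (adjusted p = 0.202), and in NP1-like neurons no adjusted p was given. The 2 NP1-like clusters held different shares of the Sprr1a- neurons by surgery. The larger cluster, which also held most Sprr1a+ NP1-like cells, had 1 of 83 and 8 of 71 in sham and 4 of 31 and 9 of 35 in CCI. The part of this shift in the fall of Psme1 was not tested. Psme2 fell in PEP5-like neurons (-0.35 ± 0.08, adjusted p = 0.00902), where 5.27% of all genes did. In cLTMR-like neurons Psme1 had -0.01 ± 0.08 and in NF2-like neurons 0.02 ± 0.13. Psmb10 rose in PEP1-like neurons (0.33 ± 0.07, adjusted p = 0.00941), the only call of this gene among the 10 classes.

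The next comparison set Sprr1a+ against Sprr1a- neurons of the same CCI libraries, with the library as a block. Nearly all subunits were higher in the Sprr1a+ neurons, and Psme1 was lower by more than any other member. A total of 34 members were higher and 4 lower (16242 genes), against 37.2% and 37% of all genes. The subunits gave 30 of the 32, at a median of 0.40 where all genes had -0.00, and those without a call were Psma6, with 244 and 243 against 212 and 217 UPM (-0.01 ± 0.03), and Psmd7, with 313 and 312 against 280 and 274 UPM (-0.00 ± 0.03). All 7 beta subunits and all 6 ATPases were higher, 10 of 11 non-ATPases and 7 of 8 alpha subunits. Past a log2 change of 0.5 there were 8 members higher and 1 lower, against 20.9% and 24.7% of all genes. Of the 26 members that rose in all neurons, 25 were among the 34, the exception being Psmd7. The comparisons share the CCI libraries.

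Scaling matters for this contrast. With library totals the median of all genes moved to -0.17, 36.7% of the called genes were higher where it had been 50.2%, and 25 members were higher and 6 lower. A scaling shifts every gene alike, so the subunits' median was 0.40 above that of all genes with either. Psma6 (-0.18) and Psmd7 (-0.17) were called lower there, and Psma3, Psma4, Psma8, Psmb5, Psmc3, Psmd1, Psmd9, Psmd10 and Psmd12 lost their call. Sprr1a+ neurons had more UMIs than Sprr1a- neurons of the same library, a median of 60287 against 51202.5 and of 45672 against 40010. Their summed immune markers stood at 56.7 and 49.6 against 7.41 and 6.57 UPM, with 2 of 8 tested called higher and 0 lower by edgeR. Their fibroblast markers summed to 8.48 and 9.03 against 5.48 and 6.18 UPM, with 4 of 5 called higher. Satellite glia markers summed to less, 719 and 1034 against 1176 and 1241 UPM, although 4 of 8 were called higher and 1 lower with TMM factors (median 0.24). The part of these cell types in the results was not tested.

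Psmd11 was at 143 and 136 UPM in Sprr1a- and at 228 and 219 UPM in Sprr1a+ CCI neurons, 0.85 ± 0.03 (SE, n = 2 libraries, adjusted p = 2.16e-09). Psmc6 went from 212 and 219 to 323 and 339.8 UPM (0.80 ± 0.03, adjusted p = 2.59e-09) and Psmc4 from 147 and 146 to 211 and 218 UPM (0.72 ± 0.03, adjusted p = 8.94e-09). Psme4 went from 36.4 and 38.1 to 62.2 and 61.4 UPM (0.90 ± 0.04, adjusted p = 1.21e-08). In these 4 genes both Sprr1a+ values exceeded both Sprr1a- values. Psmb5 was nearly level on the scale of totals, 696 and 712 against 682 and 729 UPM, and its 0.18 ± 0.03 (adjusted p = 0.000144) was 0.00 with library totals. Psmb6 had 595 and 642 against 659 and 729.5 UPM (0.34 ± 0.03, adjusted p = 7.76e-07) and Psmb7 222 and 233 against 263 and 289.6 UPM (0.45 ± 0.03, adjusted p = 2.52e-07). The smallest difference of an ATPase was that of Psmc3, 243 and 233 against 248.7 and 246 UPM (0.23 ± 0.03, adjusted p = 3.78e-05). The test of 4 sums leaves 1 residual degree of freedom, so these errors lean on the spread that all genes share. Psma8 had 20 and 17 UMIs in Sprr1a- and 42 and 25 in Sprr1a+ neurons, and its 0.87 ± 0.31 (adjusted p = 0.0269) was not called without the cells that share a barcode (adjusted p = 0.0898).

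Psme1 was at 63.9 and 64.0 UPM in Sprr1a- and at 14.9 and 17.6 UPM in Sprr1a+ CCI neurons, and was lower by -1.81 ± 0.06 on the log2 scale (adjusted p = 7.79e-08). The 42 and 144 Sprr1a+ neurons of the sham libraries had 17.1 and 19.1 UPM, also below the Sprr1a- neurons of their libraries. Psmb10 was lower in Sprr1a+ neurons at 71.3 and 80.9 against 95.5 and 106 UPM (-0.23 ± 0.03, adjusted p = 8.15e-05), and Psmd5, a chaperone of the base, at 25.9 and 25.2 against 34.1 and 32.9 UPM (-0.22 ± 0.04, adjusted p = 0.000897). Psme2 was lower by a small step, 82.7 and 77.9 against 103 and 93.4 UPM (-0.12 ± 0.03, adjusted p = 0.00898), and stood at 0.15 with cells thinned to 2000 UMIs, without a call (adjusted p = 0.169). Psme3 was higher (0.28 ± 0.04, adjusted p = 9.58e-05), as were the chaperones Psmd9 (0.19 ± 0.04) and Psmd10 (0.12 ± 0.04), the latter without a call once cells that share a barcode were left out (adjusted p = 0.104). The plot of levels in Sprr1a- and Sprr1a+ neurons shows 8 of these genes in all libraries.

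**Figure D3:**
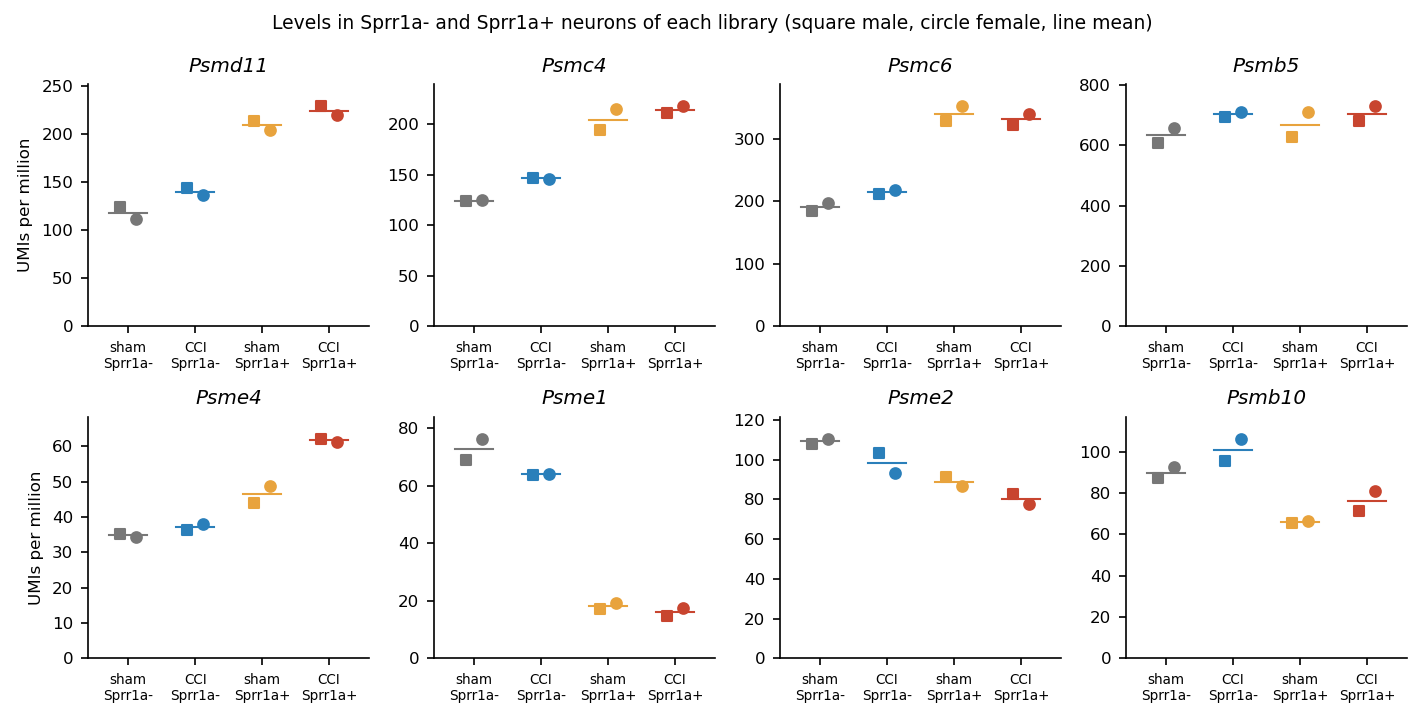
Level in UPM (y axis) of 8 members in Sprr1a- and Sprr1a+ neurons of the sham and CCI libraries (x axis), squares male, circles female and lines the mean of both. Psmd11, Psmc4, Psmc6 and Psme4 sit higher and Psme1 and Psmb10 lower in Sprr1a+ neurons of both surgeries, and the sham Sprr1a+ points rest on 42 and 144 neurons.

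Most Sprr1a+ neurons were CCI-ind-like, so that class and Sprr1a status move together in that comparison. CCI-ind-like neurons numbered 42 and 139 in the sham and 1131 and 1340 in the CCI libraries, and their summed subunits were at 10815 and 11598 UPM in sham and at 10653 and 11422 UPM in CCI. These ranges overlapped, and all 4 lay above the sums of the 11 other neuron classes of the sham libraries. An unnamed cluster led by Ly6a held 4 and 2 neurons in the sham and 139 and 264 in the CCI libraries, of which 131 and 242 were Sprr1a+. The subunits of these Sprr1a+ neurons summed to 8958 and 8743 UPM, below those of the CCI-ind-like neurons and below the 9249 and 9479 UPM of all Sprr1a- CCI neurons. Over all neurons, Sprr1a- cells had 8668 and 8834 UPM in sham and 9249 and 9479 UPM in CCI, and Sprr1a+ cells of the CCI libraries had 10466 and 10968 UPM. The alpha subunits went from 2591 and 2712 UPM in Sprr1a- to 2892 and 3105 UPM in Sprr1a+ CCI neurons, the beta subunits from 3303 and 3441 to 3611 and 3876, the ATPases from 1410 and 1432 to 1752 and 1818, and the non-ATPases from 1946 and 1894 to 2211 and 2169.

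Sprr1a+ neurons were tested against Sprr1a- neurons within a class in NP1-like, NF1-like and NF2-like neurons. In NF1-like neurons 31 of 39 members were higher (all genes 26.6%) and 0 lower by edgeR. At resolution 0.4, with the same share of all genes higher, 27.1% of all genes were lower. DESeq2 also called 0 members lower, against 8.97% of all genes. At an unadjusted p below 0.05 by edgeR 0 were lower too, a limit for which no share of all genes is given here. In NF2-like neurons 17 of 40 were higher (20.5%) and 2 lower (21.1%), and in NP1-like neurons 14 of 40 were higher (14.4%) and 1 lower (15.8%). DESeq2 called 22 higher in NF1-like (12.7% of all genes), 8 in NF2-like (9.02%) and 1 in NP1-like neurons (3.82%). The subunits' sum went from 8485 and 8324 to 10593 and 10901 UPM in NF1-like, from 8779 and 9619 to 10224 and 10086 UPM in NF2-like and from 9702 and 9819 to 10587 and 10996 UPM in NP1-like neurons. In each class both Sprr1a+ sums exceeded both Sprr1a- sums. Psmd11 was higher in all 3, by 0.83 ± 0.11, 0.56 ± 0.15 and 0.43 ± 0.09 in NF1-like, NF2-like and NP1-like neurons, as were Psmc6 (0.89 ± 0.10, 0.53 ± 0.12 and 0.59 ± 0.09), Psmc4 (1.12 ± 0.10, 0.52 ± 0.13 and 0.41 ± 0.09) and Psma7 (1.09 ± 0.10, 0.57 ± 0.13 and 0.31 ± 0.07). Psmb5 passed in NF1-like neurons (0.71 ± 0.10, adjusted p = 9.07e-13), with 0.26 ± 0.13 and 0.20 ± 0.08 in the other classes. Psme4 passed in NF2-like (0.82 ± 0.12, adjusted p = 0.000589) and NP1-like neurons (0.59 ± 0.16, adjusted p = 0.0103), with 0.25 ± 0.14 in NF1-like ones.

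Psme1 was lower in Sprr1a+ neurons of NF2-like (-2.54 ± 0.17, adjusted p = 7.52e-06) and NP1-like neurons (-1.06 ± 0.16, adjusted p = 9.79e-05). In NF1-like neurons, where its level was lowest, it had -0.44 ± 0.47 (adjusted p = 0.444). Psme2 was higher in Sprr1a+ NF1-like neurons (0.68 ± 0.13, adjusted p = 5.31e-07), with -0.09 ± 0.12 and -0.15 ± 0.12 in NF2-like and NP1-like ones, and Psmd5 was lower in NF2-like neurons (-0.53 ± 0.14, adjusted p = 0.0122). NF2-like neurons are a single cluster. NP1-like neurons are 2 clusters, of which 1 held 96 and 109 of the 98 and 113 Sprr1a+ cells and the other 27 and 26 of the 31 and 35 Sprr1a- cells of the CCI libraries, and of the NF1-like clusters 1 held all but 1 Sprr1a+ cell, so that status and cluster move together in both. How the classes differ from each other was not tested.

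**Figure D4:**
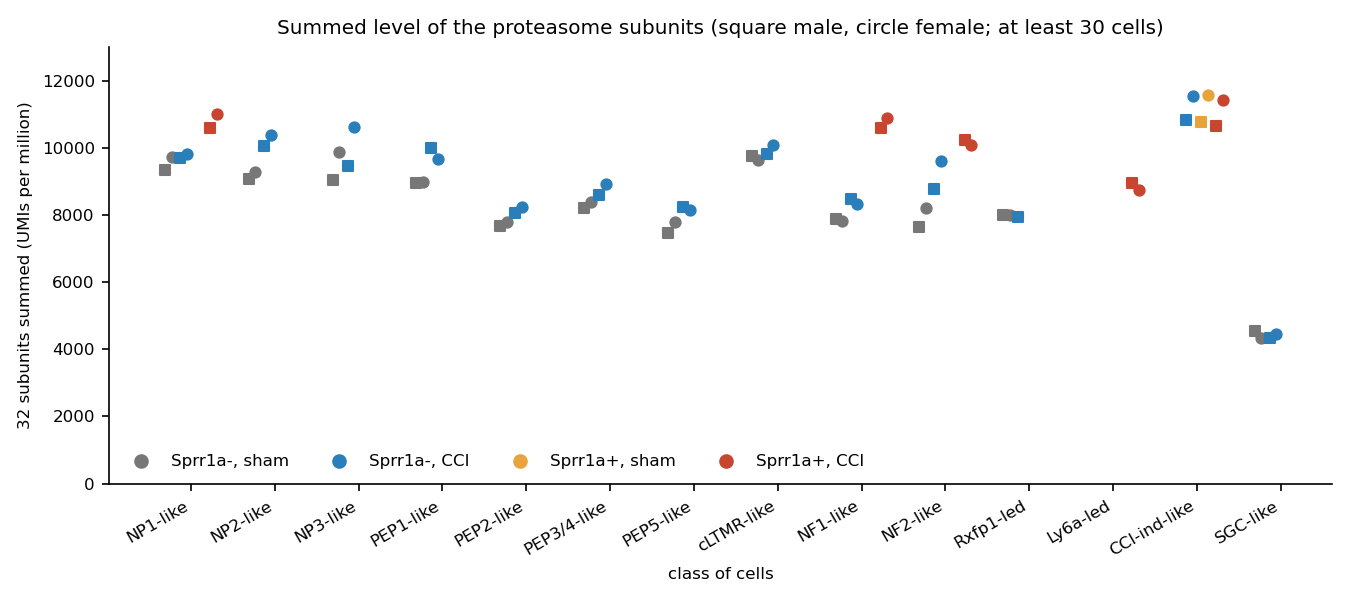
Sum of the 32 subunits in UPM (y axis) in each class (x axis), with 1 point per library and Sprr1a status where at least 30 cells were found, squares male and circles female. Sprr1a+ points of NP1-like, NF1-like and NF2-like neurons lie between 10086 and 10996, above the Sprr1a- points of the same class, CCI-ind-like points lie between 10648 and 11563, and the Sprr1a+ points of the Ly6a-led cluster lie lower, at 8958 and 8743.

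Genes that build or steer the proteasome were followed as 4 further lists, whose counts stand against the shares of all genes given above, 27.8% higher and 27.1% lower in all neurons, 9.3% and 8.3% in Sprr1a- neurons, and 37.2% and 37% for Sprr1a+ against Sprr1a- neurons. Of 17 assembly factors and regulators 9 rose and 3 fell in all neurons of CCI against sham, 2 rose and 4 fell among Sprr1a- neurons, and 11 were higher and 0 lower in Sprr1a+ neurons. Among them Pomp, the maturation factor of the core, was higher in Sprr1a+ neurons by 0.43 ± 0.03, Akirin2, which brings proteasomes into the nucleus, by 0.75 ± 0.03, the ring chaperone Psmg3 by 0.71 ± 0.03 and the ubiquitin receptor Adrm1 by 0.54 ± 0.03. Sem1, a small lid subunit without a Psm symbol, fell by 0.39 ± 0.05 in all neurons (adjusted p = 0.000785) and by 0.43 ± 0.05 in Sprr1a- neurons (adjusted p = 0.00498), from 622 and 650.4 to 469 and 465 UPM in all neurons.

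Of 7 genes of transcriptional control, 4 rose and 1 fell in all neurons, 1 fell and 0 rose in Sprr1a- neurons (edgeR), and 4 were higher and 0 lower in Sprr1a+ neurons. Mafk, a small partner of the Nfe2 factors, was at 8.04 and 8.54 UPM in sham and 11.9 and 12.8 UPM in CCI neurons (0.63 ± 0.07, adjusted p = 0.000388), and was higher in Sprr1a+ neurons by 1.12 ± 0.06 (adjusted p = 6.46e-08). Nfe2l1 fell from 240.1 and 232 to 206 and 199 UPM in all neurons (-0.17 ± 0.05, adjusted p = 0.0269) and in Sprr1a- neurons (-0.22 ± 0.05, adjusted p = 0.0261), and was called higher in Sprr1a+ ones by 0.13 ± 0.03 with TMM factors (adjusted p = 0.00277), although its level on library totals was lower there, at 201 and 198 against 211 and 201 UPM. Its RNA does not measure its activity, which is set by processing of the protein. Ddi2, the protease that frees it, rose by 0.17 ± 0.05 in all neurons (adjusted p = 0.018).

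Of 15 ubiquitin and shuttling genes 5 rose and 2 fell in all neurons, 1 rose and 1 fell in Sprr1a- neurons, and 9 were higher and 2 lower in Sprr1a+ ones. Vcp, the segregase that hands unfolded proteins on, rose in all neurons (0.48 ± 0.05, adjusted p = 0.000395), in Sprr1a- neurons (0.29 ± 0.05, adjusted p = 0.0108) and was higher in Sprr1a+ ones (0.38 ± 0.03, adjusted p = 4.59e-07). The polyubiquitin gene Ubb rose in all neurons too (0.24 ± 0.05, adjusted p = 0.00386).

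The list of 7 immunoproteasome and interferon genes was mostly lower in Sprr1a+ neurons, as Psme1 was. There 6 were lower and 1 higher, with a median of -1.23, where 37% of all genes were lower (47.5% with library totals), and in all neurons Tap2 and Irf1 fell. Psmb8 was at 40.2 and 60.3 UPM in Sprr1a- and at 8.95 and 17.2 UPM in Sprr1a+ CCI neurons (-1.80 ± 0.10, adjusted p = 9.61e-05). Psmb9 had 5.77 and 8.02 against 1.37 and 2.62 UPM (-1.64 ± 0.12, adjusted p = 1.73e-06), and the peptide transporter genes Tap1 (-1.23 ± 0.14) and Tap2 (-1.50 ± 0.11) and the transcription factor Irf1 (-1.19 ± 0.15) were lower as well. B2m, the light chain of class I molecules, was higher (0.21 ± 0.03, adjusted p = 0.000233). In Sprr1a- neurons the list went the other way, where 2 of the 7 rose after CCI and 0 fell, with a median of 0.24. There 9.3% of all genes rose and 8.3% fell. Tap1 was among the 2 (0.68 ± 0.14, adjusted p = 0.0227 by edgeR). With TMM factors all 7 constitutive beta subunits were higher and the inducible Psmb8, Psmb9 and Psmb10 lower in Sprr1a+ neurons, and with library totals Psmb5 stood at 0.00.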

How the data were processed

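UMI counts per gene and cell were deposited by the authors as raw matrices, 1 per library, neither normalized nor filtered beyond the calling of cells. The labels name Cell Ranger 2.1.1 and the header of the matrices 3.0.2, with mm10 as genome, and how the versions differ in effect was not tested. The 4 matrices hold 195684124 to 237069156 UMIs. Cells with under 1500 genes or over 10% mitochondrial UMIs were removed. Doublets were scored with Scrublet (scanpy 1.11.5, expected rate 0.1). Its own threshold marked 0 to 121 cells per library and did not work, so the highest scores were left out in the number the study removed. Libraries were integrated and clustered with Seurat 5.3.0 (3000 variable genes, the first 20 components, resolution 0.8), and a cluster took a name where at least 3 markers of a class were in at least 10% of its cells and 2 times above other cells, and only library sums of classes with at least 10 cells were used.

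UMIs were summed per library and group of cells, and edgeR 4.0.16 in R 4.3.3 (robust quasi-likelihood test, TMM, its filter on low counts) was fitted on all genes with Benjamini-Hochberg adjustment within each comparison. Sprr1a status was tested with the library as a block. The SE is the absolute log2 change divided by the square root of F. The fits were first tested on simulated data. Levels are UMIs per 1000000 UMIs of the summed cells of a library, which do not serve to compare one gene with another. The members, lists and markers were chosen with earlier results of these data known. Some genes of the pathway lists enter the counts of their list and are not reported here by name. Values in every library are given for Psmb5, Psmb6, Psmb7, Psmb10, Psme1, Psme2, Psme3 and Psme4 and for the members with the most positive and most negative change of each role. Nothing states that the cells of a library come from separate cultures, and its 5 mice were pooled, so the replicates are 2 libraries. With so few replicates the p-values also lean on the spread that all genes share. Alternatives were DESeq2 1.42.0, its size factors in edgeR, library totals, no filter, doublets kept, at least 3000 genes, cells thinned to 2000 UMIs, other limits on Sprr1a, other resolutions, sex as a block, and each library left out. Chosen after seeing the data were leaving out cells that share a barcode and leaving out 4 neuron clusters with a Fabp7 UMI in at least 90% of cells. Promoters and gene positions are from RefSeq and GENCODE M21 on GRCm38.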

Additional observations from a re-analysis of the deposited data

Results flagged for a closer look

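On UPM, without TMM factors, the change after CCI had opposite signs in the male and the female libraries for 5 members. These differences, each between single libraries, were not tested, and which members differ in sign can depend on the scaling. The log2 ratio of the female libraries minus that of the male ones was -0.11 for Psmd14, 0.13 for Psmd9, 0.10 for Psmb10, -0.0912 for Psme3 and 0.0800 for Psma3, and none of these members passed the test in all neurons.

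Sprr1a+ neurons of the sham libraries were part of all sham neurons in the first comparison, and no result of a test of them as a group is given here. Their 32 subunits summed to 10808 UPM in 42 male and 11449 UPM in 144 female neurons, against 8668 and 8834 UPM in Sprr1a- neurons of the same libraries.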

How the results depend on the processing

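Of 771 values of named members under the alternatives, 697 stayed on their side of the threshold, 56 lost and 15 gained the call. The 697 include values without a call in either fit, whose signs were not compared. The sign changed in 3 values that were called in the main or the alternative fit, all between Sprr1a+ and Sprr1a- neurons. These were Psma6 (0.13) and Psmd7 (0.0857) with any Sprr1a UMI as limit, and Psme2 (0.15) in thinned cells. Library totals moved the members' median from 0.21 to 0.15 in all neurons, from 0.0436 to 0.0667 in Sprr1a- neurons and from 0.35 to 0.18 for Sprr1a status. Thinning gave medians of 0.25 and 0.075 in the first and second of these, and a class ratio of 1.59 where resolution 0.4 gave 1.48. In thinned cells 1 member was lower in all neurons (18.4% of all genes) and 0 were higher among Sprr1a- neurons (3.35%). Any Sprr1a UMI as limit gave 1 member higher and 3 lower among Sprr1a- neurons (10.9% and 11.7% of all genes) with a median of -0.0154. For Sprr1a status it gave 1 lower (29.3% of all genes) with a median of 0.31. Among Sprr1a- neurons 1 member fell by DESeq2 (8.39% of all genes), 1 with doublets kept (9.4%), 1 with a limit of 2 (9.53%) and 2 without the filter (8.25%). Without cells that share a barcode 3 rose (7.33%). Doublets kept gave a median of 0.30 for Sprr1a status, and leaving out the 4 clusters rich in Fabp7 gave 0.31 there and 0.19 in all neurons. Summed over classes, DESeq2 gave 3 lower calls (and no adjusted p for Psme1 in NP1-like neurons) and no filter 10, with a median of 0.0549. The share of all genes lower reached 3.91% by DESeq2 and 7.53% without the filter, both in PEP3/4-like neurons. Within classes DESeq2 gave 31 calls higher in Sprr1a+ neurons against 62. The share of all genes higher was also smaller, at 12.7% (NF1-like), 9.02% (NF2-like) and 3.82% (NP1-like) against 26.6%, 20.5% and 14.4%. With single libraries left out, members higher ranged from 20 to 23 and lower from 1 to 2 in all neurons (medians 0.21 to 0.24), from 0 to 1 and from 0 to 1 in Sprr1a- neurons (0.026 to 0.0814), and from 16 to 48 and 3 to 9 over the classes (0.0518 to 0.0976). Medians ranged from 0.33 to 0.37 for Sprr1a status and from 0.26 to 0.36 within classes, without a test.

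With sex as a replicate block, 16 members rose and 2 fell among Sprr1a- neurons, where 16.4% of all genes rose and 15.3% fell. Over the classes 80 rose and 10 fell. There the shares of all genes ran from 3.97% (cLTMR-like) to 12.2% (PEP1-like) higher and from 3.12% (NF2-like) to 10.7% (PEP1-like) lower. The shares of all genes thus rose along with the counts of members. The male minus female differences of sham and CCI libraries correlated at 0.34 over 12300 genes in all neurons and at 0.38 over 12472 genes in Sprr1a- neurons. Sex pairs no animals, there are only 2 such pairs, and the causes of these shifts were not tested.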
